A study of Mus musculus with 6 samples.

Results

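The 49 genes described here encode the TGF-beta and BMP superfamily of secreted ligands with the proteins that store, receive, block and relay them, and they were chosen by name from 22162 genes measured in mouse skin fibroblasts (MSFs). They comprise 5 TGF-beta and activin ligands, 11 BMP and GDF ligands, 4 latent binding proteins, 10 receptors and co-receptors, 6 antagonists and follistatin family genes, 7 Smads, 4 Id genes, and the matrix genes Tgfbi and Bmp1. Poly(A) RNA of 6 libraries was sequenced to ask how gene expression differs between senescent and non-senescent MSFs, 3 labelled TAM and 3 labelled EtOH. The MSFs are a line from the dorsal skin of a female FASST mouse on the FVB/N strain, grown at 3% oxygen. Every library, in both groups, carries a tamoxifen-inducible Cre driven by the pro-alpha 2(I) collagen promoter and a ROSA26 allele that expresses p27Kip1 and GFP once Cre has removed a stop cassette. TAM libraries received 10 µM tamoxifen and are labelled senescent, and EtOH libraries received the ethanol vehicle and are labelled non-senescent, so the drug itself and the activated allele cannot be told apart. The libraries come from 1 line, and the labels say of the replicates only that each treatment was done 3 times, so the p-values measure the spread between these libraries, which may be technical.

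TGF-beta is secreted bound to its own propeptide and, through it, to a latent TGF-beta binding protein in the matrix. Active ligand joins type II and type I receptor kinases, which phosphorylate Smad2 and Smad3 in the TGF-beta and activin branch or Smad1 and Smad5 in the BMP branch, and these enter the nucleus with Smad4. Antagonists such as gremlin and noggin hold BMPs away from their receptors, follistatins hold activins, and the inhibitory Smad6 and Smad7 and the Id genes are classical targets of the pathway. In skin fibroblasts the TGF-beta branch is known for driving collagen production and the contractile myofibroblast state.

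Promoters of 4 genes are shown because the genes carry patterns described below. They are the BMP antagonist Grem1, the inhibitory Smad6, and the BMP targets Id2 and Id3. RefSeq windows on GRCm38.p6, from 250 bases before to 50 after the transcription start, were matched by symbol for 34 of the 49 genes, and the 250 bases before the start are printed 5′ to 3′. They lie at chr2:113758649-113758898 on the minus strand for Grem1, chr12:25096093-25096342 on the minus strand for Id2 and chr4:136143572-136143821 on the plus strand for Id3. The Smad6 run at chr9:64022056-64022309 on the minus strand goes 4 bases past the start to keep its motif whole. Capitals mark GGCGCC, the core of GC-rich elements bound by BMP Smads, and GTCTAGAC, the palindrome of the Smad3 and Smad4 binding site, both of which read the same on either strand. The motifs do not overlap in these windows.
Grem1: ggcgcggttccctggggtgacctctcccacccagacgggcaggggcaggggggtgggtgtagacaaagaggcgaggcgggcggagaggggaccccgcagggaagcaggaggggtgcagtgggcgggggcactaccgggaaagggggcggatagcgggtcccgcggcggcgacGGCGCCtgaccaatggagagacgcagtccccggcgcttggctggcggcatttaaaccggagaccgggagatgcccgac
Smad6: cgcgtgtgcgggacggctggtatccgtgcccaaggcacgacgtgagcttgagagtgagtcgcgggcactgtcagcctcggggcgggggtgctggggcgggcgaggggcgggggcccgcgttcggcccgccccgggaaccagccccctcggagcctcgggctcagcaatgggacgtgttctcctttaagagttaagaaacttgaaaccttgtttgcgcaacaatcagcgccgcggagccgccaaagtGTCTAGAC
Id2: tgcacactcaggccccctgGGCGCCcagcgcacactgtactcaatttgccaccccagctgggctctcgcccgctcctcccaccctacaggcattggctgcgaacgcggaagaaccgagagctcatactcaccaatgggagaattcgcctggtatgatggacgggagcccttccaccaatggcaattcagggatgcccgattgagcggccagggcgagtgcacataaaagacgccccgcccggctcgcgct
Id3: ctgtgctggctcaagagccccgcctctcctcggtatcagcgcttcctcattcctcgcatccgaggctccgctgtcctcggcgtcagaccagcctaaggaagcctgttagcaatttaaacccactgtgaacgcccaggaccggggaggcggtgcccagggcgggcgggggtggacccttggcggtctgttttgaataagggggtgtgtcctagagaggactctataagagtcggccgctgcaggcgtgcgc
Grem1 had 1 GGCGCC, starting 78 bases before the start, and Id2 had 1, starting 231 bases before it. Smad6 held the 1 match to GTCTAGAC, across its start, and Id3 held neither motif. GGCGCC was present in 13 of the 43 windows of these genes (30.2%) and in 11.9% of all 32851 windows, while the median GC content was 64.3% in the genes' windows and 52.7% in all windows, whose part in that share was not tested. The 13 include the same match counted again in overlapping windows of Ltbp4 and of Smad5. The 11 genes with a match, of the 34 with a window, were Gdf10, Ltbp4, Tgfbr1, Bmpr1a, Bmpr2, Grem1, Chrd, Smad5, Id2, Id4 and Tgfbi. GTCTAGAC was in 0.213% of all windows. A match is a string of letters in this window and not evidence of binding.

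The deposited table gives 1 normalized count per gene and library, and the library sums lay between 14952367 and 17314953. A value of 16.2 normalized counts, the mean library sum divided by 1000000, was taken as 1 c.p.m., and 11877 genes with this value or more in at least 3 libraries were tested on the log2(normalized count + 1) scale, which makes the differences of low genes smaller. A log2 fold change is the TAM mean minus the EtOH mean on that scale, given with its standard error (SE), and p-values were adjusted with the Benjamini-Hochberg method over all genes tested. A second limma fit took the replicate number as a block, since same-numbered EtOH and TAM libraries deviated together from their group means. The sources used here do not say that same-numbered libraries share a culture or day, so the pairing rests on these same values. Cdkn1b, the endogenous gene for p27Kip1, had 1427, 3074 and 1853 normalized counts in EtOH replicates 1, 2 and 3 and 1699, 1520 and 1630 in TAM replicates 1, 2 and 3 (log2 fold change −0.32, adjusted p = 0.677 by limma). Whether reads of the ROSA26 allele count toward this row is not given in the sources used here. Directions are therefore stated for the libraries as labelled. All 11 fibroblast markers listed were tested and none was at 0. Their summed normalized counts were lower in TAM libraries (709653 to 1142432) than in EtOH libraries (1548861 to 1688188). The sum includes the collagen genes Col1a1, Col1a2 and Col3a1. Of the 11 markers, 4 had a log2 fold change above 0, beside 46.2% of all genes tested. The part of the lower sum in the results below was not tested, and keratinocyte markers summed to at most 126 in any library. RNA from fewer cells of a type and less RNA per cell cannot be told apart in these bulk libraries.

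Of the 49 genes, 39 passed the filter. None was higher and none was lower in TAM libraries at an adjusted p under 0.05 without the block (0 and 0 of 39, limma), where 0.168% of all genes tested were higher and 0.0758% lower, 0.244% in all. An unadjusted p under 0.05 was found for 7 genes with higher TAM values, Inhbb, Gdf11, Ltbp2, Eng, Bmpr2, Grem1 and Smad6, and for 3 with lower TAM values, Bmp6, Ltbp4 and Tgfbr2. These 10 are 25.6% of the genes tested, beside a background of 6.67% higher and 6.7% lower, 13.4% in all. The 3 lower genes became 1 when EtOH replicate 1, EtOH replicate 3 or TAM replicate 2 was left out. With the replicate block, Grem1, Inhbb and Ltbp2 rose at an adjusted p under 0.05 and 0 genes fell, where 1% of all genes were called higher and 0.615% lower, 1.62% in all. By the unadjusted p the block gave 12 genes higher and 4 lower, beside 8.64% and 8.32% of all genes, 17% in all. The log2 fold change was above 0 in 25 of the 39 genes, with a median of 0.20, while it was above 0 in 46.2% of all genes, with a median of −0.03. In 24 of the 39 (61.5%) the 3 same-numbered pairs differed in 1 direction, which held for 41.9% of all genes.

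**Figure D1:**
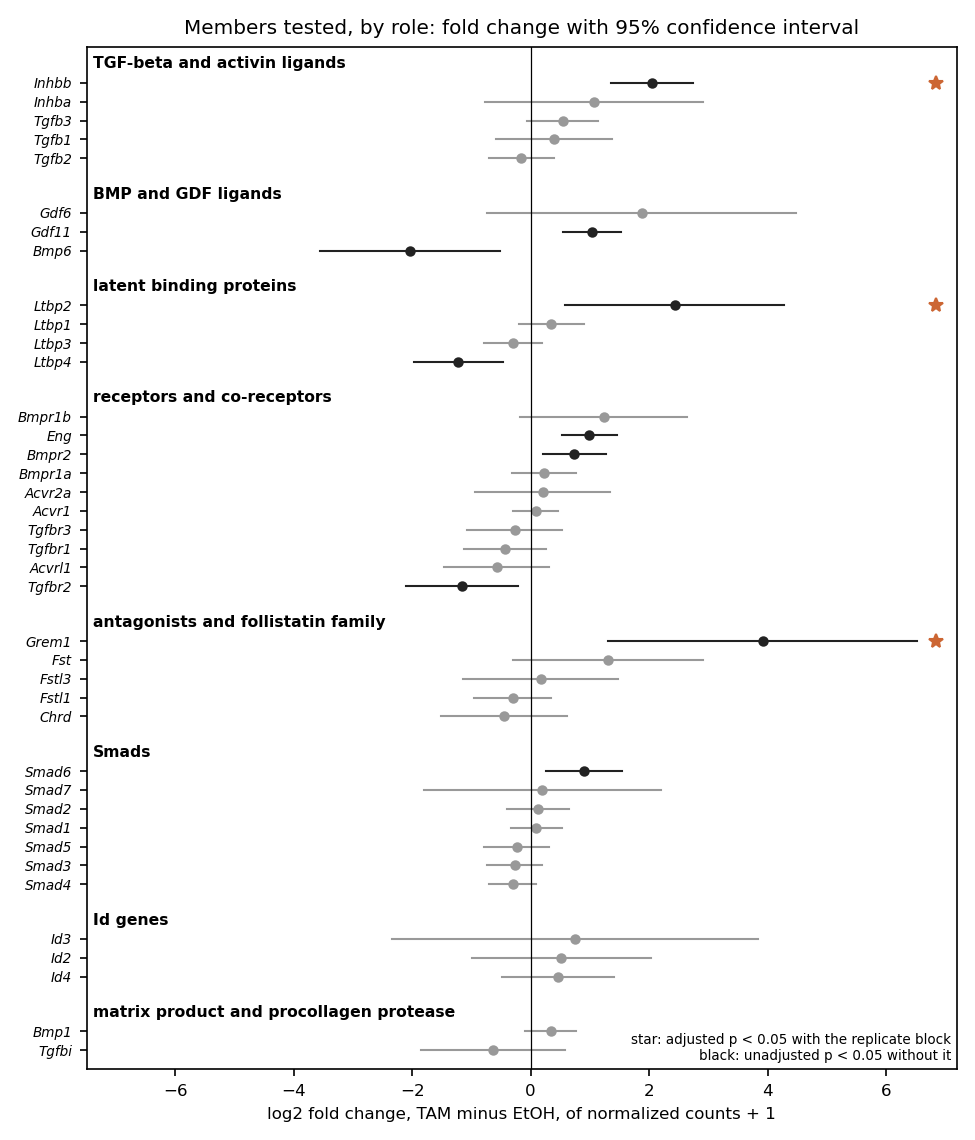
Log2 fold change (TAM minus EtOH, of normalized counts + 1) of the 39 genes tested, grouped by role, with points for the estimate and bars for the 95% confidence interval without the block. Black marks an unadjusted p under 0.05, and stars mark Grem1, Inhbb and Ltbp2, whose adjusted p was under 0.05 with the replicate block.

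Some genes of the family had both libraries numbered 2 apart from the rest. These libraries lay above the other 4 libraries in 8 of the 39 genes (20.5%, against 12.6% of all genes tested), namely Tgfb1, Tgfb2, Inhba, Fstl3, Smad1, Smad7, Id2 and Id3, and below them in Acvr2a, Fstl1 and Smad5 (3 of 39, against 11.9%). The first share was over and the second under that of all genes, so these counts do not set the family apart as a whole. Id1 and Gdf15, which were not tested, also had their highest 2 values in these libraries. The log2 fold change without both libraries numbered 2 is given beside the main value for some genes. These are the 10 with an unadjusted p under 0.05 without the block, and Inhba, Bmpr1b and Id3.

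Among the ligands of the TGF-beta and activin branch, Inhbb showed the largest difference. Inhbb encodes the beta B subunit shared by activin B and inhibin B and spans positions 121312042 to 121318825 of chromosome 1 (mm9, minus strand, 2 exon blocks). The table gave 1572, 1516 and 774 normalized counts in EtOH replicates 1, 2 and 3 and 5299, 4523 and 5503 in TAM replicates 1, 2 and 3. The groups did not overlap, and the lowest TAM library was above every EtOH library. The mean was 1287 ± 445 (SD, n = 3) in EtOH libraries and 5108 ± 517 (SD, n = 3) in TAM libraries, 3.97 times as high. The log2 fold change was 2.05 (SE 0.29, 95% confidence interval 1.36 to 2.74, limma adjusted p = 0.0591), while the block brought the adjusted p to 0.0461. Without the libraries numbered 2 it was 2.29 (adjusted p = 0.0685).

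Inhba, which encodes the beta A subunit of activin A, had 1064, 1825 and 546 normalized counts in EtOH replicates 1, 2 and 3 and 1640, 7053 and 855 in the TAM replicates of the same numbers. TAM replicate 2 was far above the other 5 libraries, the groups overlapped, and the TAM library was the higher of each pair. Its log2 fold change was 1.07 (SE 0.78, adjusted p = 0.606 by limma), with an unadjusted p of 0.0165 and an adjusted p of 0.191 under the block. It went to 0.22 when TAM replicate 2 was left out and to 0.63 (adjusted p = 0.459) without both libraries numbered 2. Per length, Inhbb made up 40.7%, 27.9% and 39.7% of the combined Inhba and Inhbb signal in EtOH replicates 1, 2 and 3 and 60.1%, 23.0% and 75.0% in the TAM replicates. Inhbb was thus the larger part in TAM replicates 1 and 3 and the smaller part in the other 4 libraries.

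The TGF-beta isoform genes differed less between the groups. Tgfb1 had 629, 1461 and 601 normalized counts in EtOH replicates and 817, 1661 and 912 in TAM replicates (log2 fold change 0.39, limma adjusted p = 0.737), with both libraries numbered 2 on top. Tgfb2 had 693, 919 and 557 in EtOH and 650, 735 and 537 in TAM libraries (−0.16, adjusted p = 0.819). Tgfb3 had 882, 721 and 686 in EtOH and 1566, 880 and 972 in TAM libraries (0.54, SE 0.25, adjusted p = 0.418), and its unadjusted p was 0.0284 with the block (adjusted p = 0.238). Values of Tgfb3 overlapped by 1 library of each group. Of the signal of the 3 isoforms per length, Tgfb1 made up 46.3% ± 10.9 in EtOH and 47.8% ± 13.2 in TAM libraries, Tgfb2 20.8% ± 1.27 and 14.5% ± 0.210, and Tgfb3 32.9% ± 9.68 and 37.7% ± 13.0 (SD, n = 3 each). The share of Tgfb2 lay between 19.5% and 22.0% in EtOH libraries and between 14.3% and 14.7% in TAM libraries, without overlap, whereas the shares of Tgfb1 and Tgfb3 overlapped.

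Of the 11 BMP and GDF ligand genes, 3 were expressed above the filter, and they differed in direction. Bmp6 had 1006, 213 and 1092 normalized counts in EtOH replicates 1, 2 and 3 and 151, 98.0 and 224 in TAM replicates 1, 2 and 3. EtOH replicate 2 lay below TAM replicate 3, so the groups overlapped by these libraries, although the TAM library was the lower of every pair. The EtOH mean was 4.88 times the TAM mean, with a log2 fold change of −2.04 (SE 0.65, unadjusted p = 0.0157, limma adjusted p = 0.256). With the block the adjusted p was 0.0701, and without the libraries numbered 2 the log2 fold change was −2.50 (adjusted p = 0.0512). Exons of Bmp6 share 236 bases (6.58% of its exon length) with Txndc5 on the opposite strand, and whether the counting used strand is not given in the sources used here.

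Gdf11, a ligand close to myostatin that signals through activin receptors, had 359, 310 and 470 normalized counts in EtOH replicates and 680, 841 and 795 in TAM replicates. Its groups did not overlap, and the mean of TAM libraries was 2.03 times that of EtOH libraries. The log2 fold change was 1.04 (SE 0.21, limma adjusted p = 0.124), with an adjusted p of 0.0935 under the block. Without the libraries numbered 2 it was 0.84 (adjusted p = 0.122). Gdf6, a ligand known for its part in joint formation, had 224, 7.56 and 40.6 in EtOH and 210, 77.9 and 236 in TAM replicates, so its replicates spread more than its groups (1.87, SE 1.11, adjusted p = 0.529). With the block its unadjusted p was 0.0341 (adjusted p = 0.256), and the log2 fold change went from 0.71 without EtOH replicate 2 to 3.06 without EtOH replicate 1.

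The other 8 BMP and GDF genes were not tested. Bmp2, Bmp4, Bmp5, Gdf5 and Gdf10 stayed under 1 c.p.m. in all 6 libraries, and Bmp7 was listed at 0 in all of them. Bmp4 had 1.41, 0.92 and 0 normalized counts in EtOH and 9.30, 2.50 and 3.52 in TAM replicates, values that can stand for a few reads. Without the filter its unadjusted p was 0.0160 and its adjusted p 0.262. Bmp3 reached 76.1 normalized counts in EtOH replicate 3 and was at most 24.6 in the other 5 libraries. Gdf15, a stress-induced ligand, was between 9.19 and 27.7 in EtOH and between 11.8 and 31.8 in TAM replicates, with no separation of the groups. Noggin (Nog), a BMP antagonist, was at most 6.16 in any library.

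Among the latent binding proteins, Ltbp2 and Ltbp4 had log2 fold changes of opposite sign. Ltbp2, an elastic-fibre protein of the family that does not itself bind latent TGF-beta, spans positions 86124162 to 86217482 of chromosome 12 (mm9, minus strand, 36 exon blocks). It had 104, 670 and 231 normalized counts in EtOH replicates 1, 2 and 3 and 1040, 3444 and 714 in TAM replicates 1, 2 and 3. The lowest TAM value was just above the highest EtOH value, which was that of replicate 2, and the TAM library was the higher of each pair. Its log2 fold change was 2.43 (SE 0.79, limma adjusted p = 0.262), and the block reduced the SE to 0.34 and gave an adjusted p of 0.0461. Without the libraries numbered 2 it was 2.46 (adjusted p = 0.0803). Its exons share 764 bases with D030025P21Rik on the opposite strand.

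Ltbp4, which binds latent TGF-beta 1 and takes part in elastic fibre assembly, had 917, 1274 and 1703 normalized counts in EtOH and 444, 442 and 799 in TAM replicates. Every TAM value was below every EtOH value, and the EtOH mean was 2.31 times the TAM mean. The log2 fold change was −1.22 (SE 0.32, unadjusted p = 0.00635, limma adjusted p = 0.197, and 0.0505 once blocked by replicate), and −1.07 (adjusted p = 0.233) without the libraries numbered 2. Per length, the level of Ltbp2 was 0.0899, 0.415 and 0.107 times that of Ltbp4 in EtOH replicates 1, 2 and 3 and 1.85, 6.15 and 0.705 times in TAM replicates 1, 2 and 3. The ranges of this ratio could not overlap, because Ltbp2 lay wholly higher and Ltbp4 wholly lower in TAM libraries, so they add nothing to those separations. Ltbp3, the most abundant of the family per length, had 5361, 5288 and 6438 normalized counts in EtOH and 4215, 4040 and 5816 in TAM replicates (−0.29, adjusted p = 0.597). Ltbp1 was between 3549 and 3698 in EtOH and between 3411 and 5924 in TAM replicates (0.35, adjusted p = 0.576).

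**Figure D2:**
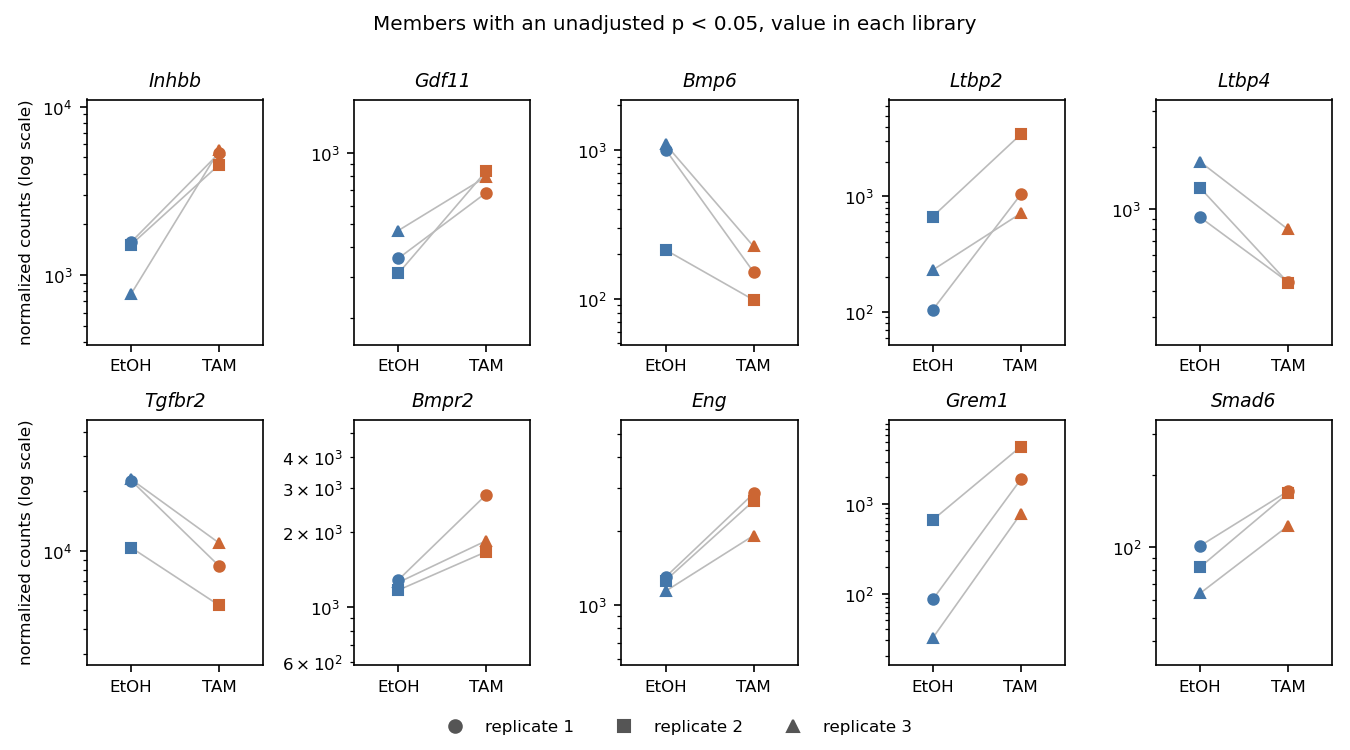
Normalized counts (log scale) of the 10 genes with an unadjusted p under 0.05 without the block, 1 point per library, with lines joining EtOH and TAM libraries of the same replicate number. In each panel the 3 lines run the same way, upward in the 7 genes with higher and downward in the 3 genes with lower TAM values, while the EtOH and TAM points of Bmp6 and Tgfbr2 overlap.

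All 10 receptors and co-receptors were tested, and none was called with or without the block. Tgfbr2, the type II receptor that binds TGF-beta itself, had the highest level of them per length as a mean over all 6 libraries, with 22608, 10354 and 22935 normalized counts in EtOH and 8349, 5283 and 10910 in TAM replicates. TAM replicate 3 was slightly above EtOH replicate 2, and within each pair the TAM library was the lower. Its log2 fold change was −1.16 (SE 0.40, unadjusted p = 0.0234, limma adjusted p = 0.290), with an adjusted p of 0.0757 under the block, and it was −1.25 (adjusted p = 0.0812) without the libraries numbered 2. In EtOH replicate 2 and TAM replicates 1 and 3 the co-receptor Tgfbr3 was above it per length, and in TAM replicate 2 Eng was. The ratio of Tgfbr2 to the type I receptor Tgfbr1, per length, was between 7.36 and 18.5 in EtOH and between 6.28 and 7.99 in TAM replicates, and these ranges overlapped.

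Eng, the co-receptor endoglin, which binds TGF-beta superfamily ligands and is best known in endothelium, had 1297, 1255 and 1136 normalized counts in EtOH and 2846, 2655 and 1917 in TAM replicates. Its groups were apart, with TAM libraries 2.01 times as high on average (log2 fold change 0.99, SE 0.20, limma adjusted p = 0.123, and 0.0710 with the block), and the log2 fold change was 0.94 without the libraries numbered 2. Of 8 endothelial markers, Pecam1 was at most 11.3 normalized counts, Cdh5 at most 4.80 and Cldn5 at 0 in every library. Their summed level was 92.5 to 241 in EtOH and 24.6 to 45.2 in TAM libraries, and only Kdr among them was tested (205, 68.7 and 116 in EtOH, 4.84, 7.53 and 14.0 in TAM replicates). Kdr held much of that sum in EtOH libraries, and whether endothelial cells had a part in the Eng values was not tested. Eng shares 124 exon bases with Ak1 on the same strand.

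Bmpr2, the type II receptor of BMPs, had 1283, 1167 and 1253 normalized counts in EtOH and 2832, 1667 and 1846 in TAM replicates. No TAM value reached down to the EtOH range (0.74, SE 0.23, limma adjusted p = 0.247, or 0.164 in the blocked fit), with a log2 fold change of 0.85 without the libraries numbered 2. The type I receptor Bmpr1b was much scarcer, with 53.0, 59.1 and 30.8 in EtOH and 87.8, 271 and 54.5 in TAM replicates (1.23, SE 0.60, adjusted p = 0.437), and an unadjusted p of 0.0203 with the block (adjusted p = 0.207). Its log2 fold change was 0.58 without TAM replicate 2 and 0.76 without both libraries numbered 2. The other 6 receptors, Tgfbr1, Tgfbr3, Bmpr1a, Acvr1, Acvr2a and Acvrl1, had log2 fold changes between −0.57 and 0.23 and adjusted p-values between 0.572 and 0.895.

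**Figure D3:**
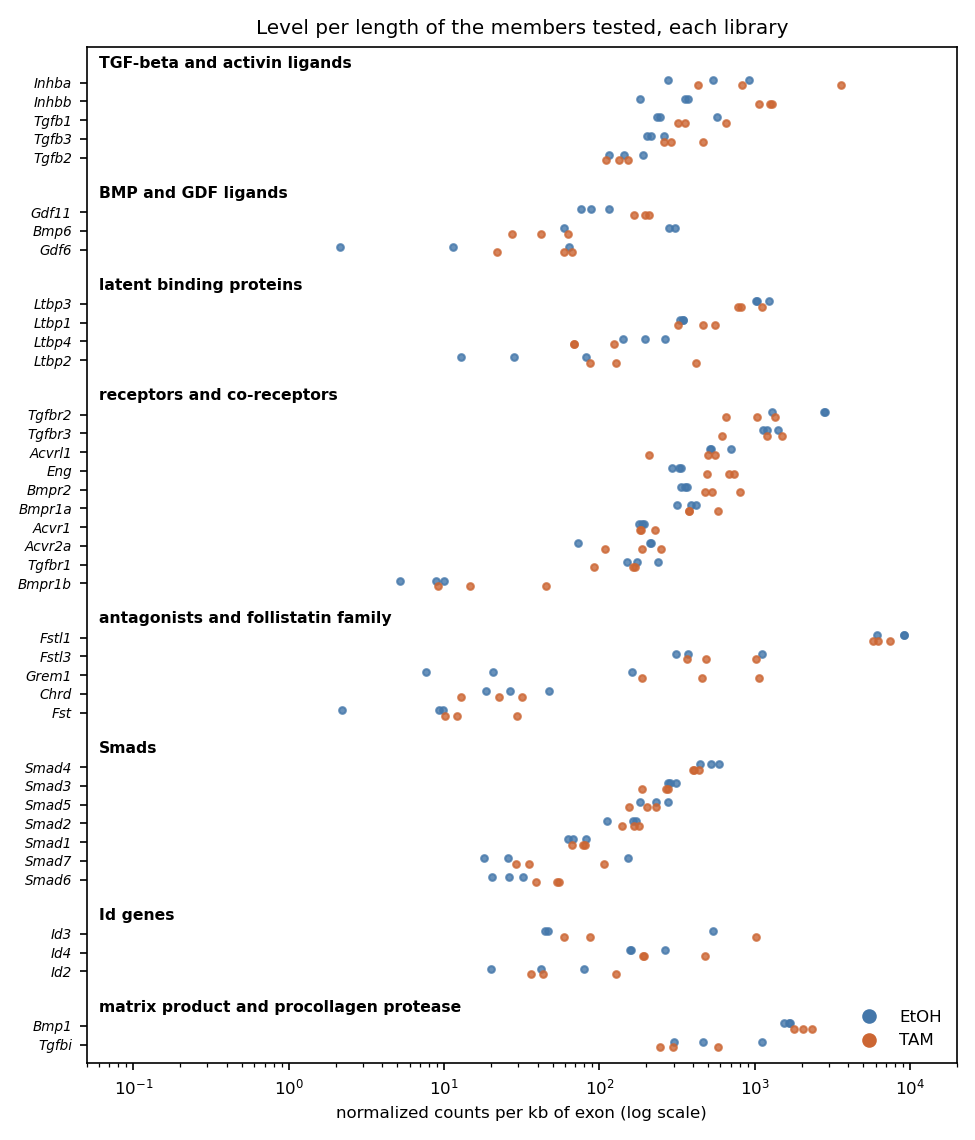
Level of the 39 genes tested in normalized counts per kb of exon (log scale), 1 point per library, with EtOH in blue and TAM in orange, ordered within each role by mean level. Fstl1 lies above all other genes in each library, Smad4 leads the Smads in each library, and Tgfbr2 and Tgfbr3 lead the receptors by their mean over all 6 libraries.

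Grem1, the secreted BMP antagonist gremlin 1 whose promoter is printed above, had the largest log2 fold change of the 39 genes. Its positions are 113586321 to 113598803 of chromosome 2 (mm9, minus strand, 2 exon blocks). Grem1 had 85.7, 667 and 31.7 normalized counts in EtOH replicates 1, 2 and 3 and 1894, 4414 and 782 in TAM replicates 1, 2 and 3. EtOH replicate 2 came close to TAM replicate 3, and no values overlapped. The log2 fold change was 3.92 (SE 1.11, 95% confidence interval 1.31 to 6.53, unadjusted p = 0.00923, limma adjusted p = 0.218). Within pairs 1, 2 and 3 the differences were 4.45, 2.73 and 4.58 on the same scale, and blocking reduced the SE to 0.40 and the adjusted p to 0.0275. Without the libraries numbered 2 the log2 fold change was 4.51 (adjusted p = 0.0588). Per length, Grem1 was 0.0737, 2.71 and 0.0251 times the level of Bmp6 in EtOH replicates 1, 2 and 3 and 10.9, 38.9 and 3.01 times in the TAM replicates.

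Follistatin (Fst), which binds and neutralizes activins, was low, with 5.94, 24.8 and 26.5 normalized counts in EtOH and 32.6, 78.7 and 27.1 in TAM replicates. The groups were separated by under 1 normalized count between EtOH replicate 3 and TAM replicate 3 (log2 fold change 1.31, SE 0.68, limma adjusted p = 0.465). Per length, Inhbb stood at 167, 38.7 and 18.5 times the level of Fst in EtOH and at 103, 36.3 and 128 times in TAM replicates, with overlap. Fstl1, a secreted glycoprotein of the follistatin-like family, was the most abundant of the 49 genes per length, with 44697, 30023 and 44534 normalized counts in EtOH and 30480, 28466 and 36409 in TAM replicates. Its log2 fold change was −0.31 (adjusted p = 0.680) and turned to 0.02 with quantile normalization. Fstl3, an activin-binding relative, had a log2 fold change of 0.17 (adjusted p = 0.928) and shares 47.3% of its exon length with Prss57 on the opposite strand, and the BMP antagonist chordin (Chrd) had −0.45 (adjusted p = 0.711).

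Inside the cell, the Smads differed little between the groups, with Smad6 apart. Smad6, the inhibitory Smad of the BMP branch, had 101, 82.0 and 63.7 normalized counts in EtOH and 172, 168 and 123 in TAM replicates, without overlap (log2 fold change 0.91, SE 0.27, unadjusted p = 0.0122, limma adjusted p = 0.240, or 0.141 in the blocked fit), with a log2 fold change of 0.85 without the libraries numbered 2. Its promoter, printed above, held the 1 GTCTAGAC match. Smad4, the partner of all receptor-activated Smads and the most abundant Smad per length, had 1934, 2168 and 1639 in EtOH and 1630, 1485 and 1510 in TAM replicates, also without overlap but with a smaller difference (−0.30, SE 0.17, adjusted p = 0.497). The 6 Smads other than Smad6 had log2 fold changes between −0.30 and 0.20 and adjusted p-values between 0.497 and 0.947. Smad7, the inhibitory Smad of both branches, varied by replicate instead, with 117, 692 and 81.3 in EtOH and 158, 483 and 131 in TAM replicates (0.20, SE 0.85).

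The Id genes encode helix-loop-helix proteins that block DNA binding of their partners, and Id1, Id2 and Id3 had their highest values in the libraries numbered 2 of both groups. Id1 had 5.16, 288 and 4.27 normalized counts in EtOH and 8.56, 545 and 5.36 in TAM replicates, so the library numbered 2 was 61.1 times the mean of the other 2 in EtOH and 78.4 times in TAM. Id1 exceeded 1 c.p.m. in these 2 libraries only and was not tested. Id3 had 79.4, 963 and 83.1 in EtOH and 106, 1826 and 157 in TAM replicates, and its libraries numbered 2 were 11.8 and 13.9 times the mean of the others. By this ratio over both groups Id3 ranked 11 of the 11877 genes tested. Id2 had 25.5, 101 and 53.1 in EtOH and 54.9, 163 and 45.8 in TAM replicates, and Smad7, with ratios of 6.97 and 3.34, also had its highest values in both libraries numbered 2.

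Within pairs, the TAM library had the higher Id3 value each time, with differences of 0.41, 0.92 and 0.91 on the log2 scale. The log2 fold change of Id3 was 0.75 (SE 1.31, limma adjusted p = 0.852), and blocking gave an SE of 0.20, an unadjusted p of 0.0134 and an adjusted p of 0.173. Without TAM replicate 2 it reversed to −0.52, with EtOH replicate 2 still in the fit, and without both libraries numbered 2 it was 0.66 (adjusted p = 0.254). Id4, a family member with separate expression in many tissues, had 440, 265 and 262 in EtOH and 316, 789 and 321 in TAM replicates (0.46, adjusted p = 0.669), and only its TAM library numbered 2 was high.

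**Figure D4:**
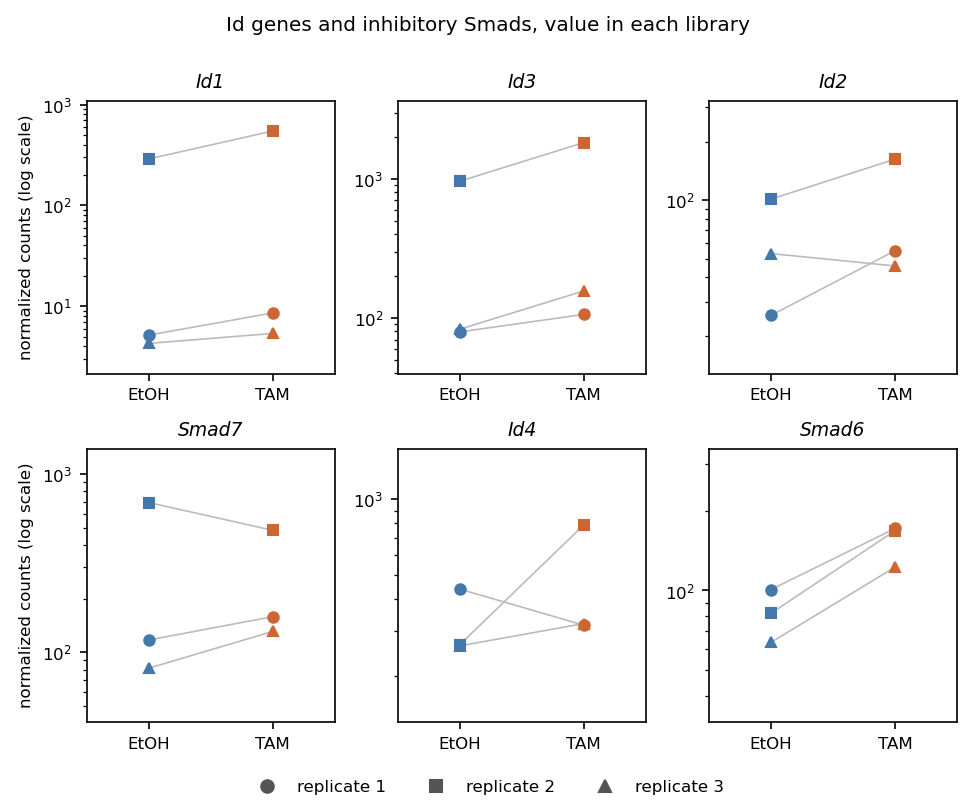
Normalized counts (log scale) of the 4 Id genes and the inhibitory Smads Smad6 and Smad7, 1 point per library, with lines joining same-numbered EtOH and TAM libraries. Id1, Id2, Id3 and Smad7 have the squares of replicate 2 above the other 4 libraries in both groups, whereas the Smad6 points separate by treatment.

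Tgfbi, a matrix protein named for its induction by TGF-beta, had 898, 1377 and 3322 normalized counts in EtOH and 886, 723 and 1707 in TAM replicates. The groups overlapped, and each TAM value was below its pair, by 0.02, 0.93 and 0.96 on the log2 scale (log2 fold change −0.64, SE 0.52, limma adjusted p = 0.646, with an unadjusted p of 0.0448 and an adjusted p of 0.284 under the block). Leaving out 1 library gave a log2 fold change of −0.11 without EtOH replicate 3 and of −1.05 without EtOH replicate 1. Bmp1, which despite its name is the protease that trims procollagen, had 7007, 6382 and 6863 in EtOH and 9731, 8529 and 7460 in TAM replicates. Its groups did not overlap, with a log2 fold change of 0.34 (SE 0.19, adjusted p = 0.490). Counted over all roles, TAM values lay wholly above EtOH values in 9 of the 39 genes and wholly below in 2, or 28.2% of them, beside 9.19%, 11.4% and 20.6% of all genes tested.

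A list of other pathway genes held 60 that were found in the table, of which 37 were tested and 0 called without the block. By the unadjusted p, 5 had higher and 2 had lower TAM values under 0.05, beside 6.67% and 6.7% of all genes. Bmp8a, a BMP ligand, had 68.9, 123 and 98.5 normalized counts in EtOH and 7.07, 24.3 and 22.0 in TAM replicates (log2 fold change −2.51, limma adjusted p = 0.131), and it fell with the block (adjusted p = 0.0451). Among secreted regulators, Lrrc32, the GARP protein that holds latent TGF-beta on the cell surface, had a log2 fold change of 1.96 (adjusted p = 0.226) and Bmper, which binds BMPs, 1.69 (adjusted p = 0.103). Rgma, a BMP co-receptor, had −1.08 (adjusted p = 0.295), Pmepa1, a feedback inhibitor of TGF-beta signalling, 0.67 (adjusted p = 0.256), and the kinase gene Map3k7 0.45 (adjusted p = 0.327).

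Of 30 TGF-beta target genes, 29 were tested. TAM values were higher in 6 of them and lower in 0 by an unadjusted p under 0.05, beside 6.67% and 6.7% of all genes, and the median log2 fold change was 0.36. Cnn1, a contractile protein, had 856, 523 and 551 normalized counts in EtOH and 1080, 6645 and 1749 in TAM replicates (log2 fold change 1.89, limma adjusted p = 0.270). Cdkn1a, the cell cycle inhibitor p21, had a log2 fold change of 1.15 (adjusted p = 0.254) and Nox4, an oxidase, 1.04 (adjusted p = 0.257). TAM values lay wholly above EtOH values in 4 of the 29 targets and wholly below in 3, beside 9.19% and 11.4% of all genes tested. The 3 were the fibrillar collagen genes Col1a1 (log2 fold change −0.66, limma adjusted p = 0.606), Col1a2 (−0.77, adjusted p = 0.492) and Col3a1 (−1.21, adjusted p = 0.424). They are also among the fibroblast markers and count toward the marker sum that was lower in TAM libraries. Without the block 0 of the 29 targets were called, and the lowest limma adjusted p was 0.254. With the block 1 target was called, Tnc, the matrix protein tenascin C, which rose by 2.85 (adjusted p = 0.0285). The blocked fit called 1% of all genes tested higher. Of 14 BMP target genes, 7 were tested and 0 had an unadjusted p under 0.05 without the block, with a median of 0.30, and in 4 of the 7 both libraries numbered 2 were above the other 4, beside 12.6% of all genes.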

How the data were processed

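The 6 libraries were polyA RNA of MSFs, 3 per group, grouped by their labels. The authors mapped reads to mm9 with TopHat, assigned them to RefSeq genes with htseq-count and tested them in edgeR with TMM normalization, and they deposited 1 table of normalized counts per gene, a signal whose scaling is not stated. Its values are not whole numbers (0.864% of those above 0 are, within 0.005), so no count test was run. The model was limma 3.58.1 in R 4.3.3, with an intensity trend, on log2(value + 1), and genes were filtered at 1 c.p.m. (16.2 normalized counts) in at least 3 libraries. Read totals are not known, so counting errors are not given, and precision is that of 3 libraries against 3.

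The members, lists, markers and tests were chosen with earlier results of these data known. Per-library values are given for members called or with an unadjusted p under 0.05 with or without the block, for those whose groups did not overlap at a log2 fold change of at least 1, and for the most abundant member of each role. Other pathway genes and targets needed an unadjusted p under 0.05 without overlap, at most 3 per list. Tnc, the collagens, Bmp3, Bmp4, Gdf15, Id1, Id2, Id4, Smad7, Tgfb1 and Tgfb2 were named after their values were seen. The summed level of macrophage markers was 204 to 529 in EtOH and 369 to 549 in TAM libraries, of melanocyte and Schwann cell markers 168 to 284 and 157 to 214, and of mural and muscle markers 478 to 795 and 679 to 2429.

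Replicate numbers come from the labels. Across 11877 genes, which are not independent, deviations from the group means correlated in same-numbered libraries with r = 0.241, 0.287 and 0.422, and in the others with r from −0.31 to 0.037, so the numbers were taken to pair the libraries. Deviations within a group cancel out, so positive values in same-numbered libraries bring negative ones elsewhere. Levels per length used exon lengths of an mm9 annotation, which is not the RefSeq set that the authors counted on. Of 22148 genes found in it, 15782 had the same start and end as deposited. Whether comparisons of level between genes change with other lengths was not tested. Alternatives were the block, filters, pseudocounts of 0.1 and 10, scalings, library weights and left-out libraries, and leaving out both libraries numbered 2 was chosen after seeing the data. Figures used Python 3.11.15, pandas 2.3.3 and matplotlib 3.10.9.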

Additional observations from a re-analysis of the deposited data

How the results depend on the processing

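The number of members higher in TAM libraries at an adjusted p under 0.05 was 0 and became 3 with the replicate block. It was 1 with libraries scaled to equal sums (Inhbb, limma adjusted p = 0.0401). Library weights gave 5 higher, Inhbb, Gdf11, Ltbp2, Eng and Grem1, and 2 lower, Bmp6 and Tgfbr2, while the number lower was otherwise 0. Shares of all genes called are given here only for the fits without and with the block. Whether the other settings raise calls for all genes alike was not tested. At an unadjusted p the number higher, 7, became 12 with the replicate block and 10 with equal sums, and the number lower, 3, became 4 with the block. With both libraries numbered 2 left out, the adjusted counts were 0 and 0 and the unadjusted ones 8 and 3. Leaving out 1 library at a time gave 0 calls at an adjusted p, 7 to 8 members higher and 1 to 3 lower at an unadjusted p, the 1 coming without EtOH replicate 1, EtOH replicate 3 or TAM replicate 2. Pairing by replicate number called Grem1, Inhbb and Ltbp2 and no other member.

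Of 334 values of the 21 named members under 16 alternatives, 321 kept their direction and side of the threshold and 11 passed it. The other 2 reversed, Fstl1 to 0.02 with quantile normalization and Id3 to −0.52 without TAM replicate 2 (range −0.52 to 1.93 over left-out libraries, highest without EtOH replicate 2). The cause was not tested. Scaling to equal sums moved the median of all genes from −0.03 to 0.08 on the log2 scale. Members with normalized counts of a few units, such as Bmp4 and Nog, are limited by depth.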
